A study of Mus musculus with 56 samples.

Results

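Fos, Fosb, Fosl1, Fosl2, Jun, Junb, Jund, Atf3 and Egr1 are the genes described here. They are the members of the transcription factor family AP-1 and the immediate early genes Atf3 and Egr1, and they were picked by symbol. All 9 were found among the 13451 genes of a table of sorted cells and among the 12935 genes of a day 10 overexpression table. Every member passed the filter on low values, which asks for 10 or more in 2 or more libraries, in both tables. The study reprogrammed mouse embryonic fibroblasts (MEFs) with an Oct4-GFP reporter, called OG2-MEFs in the labels, under changed levels of Ctcf, an insulator protein that shapes chromatin loops. In the sorted course, fibroblasts carried a doxycycline-inducible polycistronic lentivirus of Oct4, Sox2, Klf4 and Myc (OSKM), the activator rtTA, and either a control shRNA labelled shLuci or a Ctcf shRNA, whose virus was concentrated. Cells at day 0 are not labelled as sorted. At days 3, 6 and 9 they were sorted into Thy1+ cells, SSEA1+ cells and double-negative cells that lack both markers (SSEA1-Thy1-), and at day 12 into GFP+ cells, so that 11 populations have 2 libraries per shRNA and 44 libraries in all. In the day 10 table, retroviral pMXs vectors gave OSKM with a control, with CTCF overexpression (oeCTCF), or with CTCF overexpression and an shRNA against Smarca5, the motor of ISWI chromatin remodelling complexes, with 2 libraries each. All infected cells grew in stem cell medium with vitamin C. A further day 10 experiment has 2 libraries each with control shRNA and Ctcf shRNA. Their titles name no sorted population, and they are seen here only through the authors' own comparison. MEFs and an iPSC line were also sequenced once each, the iPSCs in medium with a MEK inhibitor and a GSK3 inhibitor. Thy1 marks fibroblasts, SSEA1 an intermediate on the way to pluripotency, and the Oct4-GFP reporter the late pluripotent state.

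AP-1 is a dimer of a FOS protein with a JUN protein, or of JUN proteins with each other, held together by a leucine zipper. Fos, Fosb, Jun, Junb, Atf3 and Egr1 are induced within minutes by growth factors, serum and stress through MAP kinases and serum response factor, while Fosl1, Fosl2 and Jund respond later or are steadily expressed. In fibroblasts AP-1 occupies many enhancers of fibroblast genes, and in reprogramming these enhancers are shut as pluripotency enhancers open.

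Promoter sequences of 7 members (Fos, Fosb, Fosl2, Jun, Junb, Jund and Atf3) were found in RefSeq (GRCm38.p6); Fosl1 and Egr1 are named only. The 3 printed here are those in which a cAMP response element or one of its variants, the class of site bound by ATF and JUN proteins, was matched in the 250 bases before the annotated start. Each line gives the 120 bases before the start, 5′ to 3′ on the gene's strand, with the match in capitals.
Fos, chr12:85473770-85473889, plus strand: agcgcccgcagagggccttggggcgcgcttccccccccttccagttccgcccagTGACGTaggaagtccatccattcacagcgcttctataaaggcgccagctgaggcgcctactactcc
Jun, chr4:95052223-95052342, minus strand: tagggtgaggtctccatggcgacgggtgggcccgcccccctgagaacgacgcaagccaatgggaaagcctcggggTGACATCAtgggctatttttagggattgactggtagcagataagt
Atf3, chr1:191183334-191183453, minus strand: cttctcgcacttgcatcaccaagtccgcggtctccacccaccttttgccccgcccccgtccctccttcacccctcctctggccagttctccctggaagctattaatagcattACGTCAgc

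Motifs were searched on both strands. The Fos promoter held TGACGT from 66 to 61 bases before the start and TATAAA, the TATA box, from 33 to 28. The Jun promoter held TGACNTCA from 45 to 38 bases before the start. The Atf3 promoter held TGACGT on the other strand, read here as ACGTCA, from 8 to 3 bases before the start. The classical AP-1 site TGANTCA, the CArG box of serum response factor and the motifs above had no match in the windows of Fosb, Fosl2, Junb and Jund, which says only that these letters are not there. Among 32851 promoters of the same length, 6.47% held TGACGT, 7.49% TGACNTCA, 6.75% TGANTCA, 12.4% TATAAA and 1.47% a CArG box. TGACGT and TGACNTCA overlap where the N is a G. In GRCm38 with GENCODE vM21, Fos spans chr12:85473890-85477273, Fosb chr7:19302696-19310051, Fosl1 chr19:5447547-5455946, Fosl2 chr5:32135801-32157842 and Jun chr4:95049034-95052222. Junb spans chr8:84974484-84978718, Jund chr8:70698949-70700616, Atf3 chr1:191170296-191218039 and Egr1 chr18:34859823-34864984. The RefSeq start behind each window is the GENCODE gene start for Fos and Jun, and lies 6 bases inside the gene for Fosb and 30 bases upstream of it for Junb. It lies 671 bases inside the gene for Fosl2, 34706 bases inside for Atf3 and 1210 bases upstream for Jund, so these 3 windows are not next to the gene starts printed here.

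Levels are scores, the authors' normalized and rounded tag counts, whose library medians lay between 488 and 496 in the sorted table and totals over genes between 26119844 and 28981763. The libraries of the sorted table had nearly the same quartiles, with upper quartiles of 1322 to 1356.5, and identical scores recur in 2 libraries. The method of normalization is not given. Differences are on the scale of log2(score + 1), fitted with limma over all genes, and called means an adjusted p below 0.05. Nothing in the labels says that replicates were separate cultures, so p-values measure only the spread between these libraries, which may be technical. Ctcf was called lower with Ctcf shRNA in 11 of 11 populations, by log2 differences of -0.52 to -1.81. The summed score of 6 fibroblast markers (Thy1, Col1a1, Col1a2, Col3a1, Pdgfra and Pdgfrb) with control shRNA was 70623 at day 0, 78218 to 266647 in Thy1+ cells, 2258.5 to 30961.5 in SSEA1+ cells and 12074.5 at day 12. That of 6 pluripotency markers was 8 at day 0 and 33464 at day 12, and that of 10 measured macrophage markers was 7764.5 at day 0 and 928 to 2320 in the other control populations. The fibroblast sum includes Thy1, which was itself used for sorting. In bulk samples, fewer cells of a type and less RNA per cell cannot be told apart. Sorting is labelled for days 3 to 12 only, and handling of cells is known to induce these genes, so sorting and day cannot be told apart in comparisons with day 0.

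Fos and Fosb, the classical inducible FOS proteins, were low at the start and high in late Thy1+ cells. With control shRNA, Fos scored 604 and 618 at day 0, 1107 and 998 in day 3 Thy1+ cells, 5256 and 5160 in day 6 Thy1+ cells and 9793 and 10342 in day 9 Thy1+ cells. In SSEA1+ cells it scored 553 and 582 on day 3, 1190 and 1216 on day 6 and 4294 and 4681 on day 9, and it then stood at 1638 and 1865 in day 12 GFP+ cells. Both libraries of each Thy1+ population were above both SSEA1+ libraries of the same day, and the mean in day 9 Thy1+ cells was 17.7 times that in day 3 SSEA1+ cells, the lowest of 11 control populations. Fosb covered a wider range. It scored 692 and 678 at day 0, 316 and 300 in day 3 SSEA1+ cells, 4072 and 4139 in day 6 Thy1+ cells, 11100 and 12148 in day 9 Thy1+ cells and 1036 and 1089 at day 12. Its highest and lowest control populations, again day 9 Thy1+ and day 3 SSEA1+, were 37.7-fold apart. In the order of control populations, Fos in day 6 Thy1+ cells overlapped with its neighbour, day 9 double-negative cells, and no other neighbours overlapped. For Fosb, day 6 Thy1+ overlapped with day 9 SSEA1+, and day 3 Thy1+ with both day 12 GFP+ and day 3 double-negative cells.

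Fosl1 and Fosl2, the FOS proteins that lack a strong activation domain, did not follow Fos. Fosl1 was highest in the starting fibroblasts, at 2110 and 1992, and lowest at day 12, at 56 and 64, a 34.2-fold range over the control populations. In Thy1+ cells it scored 742 and 856 on day 3, 646 and 589 on day 6 and 606 and 626 on day 9, where day 6 and day 9 libraries overlapped. In SSEA1+ cells it scored 656 and 658 on day 3, 126 and 132 on day 6 and 118 and 130 on day 9. The day 0 libraries were thus above all others, and the sorted SSEA1+ cells of days 6 and 9 overlapped with each other near the bottom. Fosl2 scored 3255 and 3224 at day 0, 415 and 409 in day 6 SSEA1+ cells, 5012 and 5196 in day 9 Thy1+ cells and 417 and 433 at day 12. It was highest in day 9 Thy1+ cells with day 0 second, and its range over control populations was 12.4-fold.

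The JUN family was highest in day 9 Thy1+ cells, and its 3 members had unequal ranges. Jun scored 2961 in both day 0 libraries, 1302 and 1392 in day 3 SSEA1+ cells, 6857 and 7028 in day 6 Thy1+ cells, 11459 and 11918 in day 9 Thy1+ cells and 3468 and 3576 at day 12. Junb, a partner that often restrains Jun in growth control, scored 2648 and 2535 at day 0, 568 and 606 in day 6 SSEA1+ cells, 9238 and 9464 in day 9 Thy1+ cells and 2120 and 1992 at day 12. No neighbours in the order of the 11 control populations overlapped for Jun or Junb, whose ranges were 8.68-fold and 15.9-fold. Jund, the most steadily expressed JUN gene in most tissues, had the smallest range of the 9 members, 4.95-fold. It scored 1584 and 1596 at day 0, 1164 and 1416 in day 3 SSEA1+ cells, 6440 and 6340 in day 9 Thy1+ cells, 6036 and 6387 in day 9 SSEA1+ cells and 2958 and 3547 at day 12. Its Thy1+ and SSEA1+ libraries of day 9 overlapped.

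Atf3, a stress-induced factor that pairs with JUN proteins, was also highest in day 9 Thy1+ cells. With control shRNA it scored 244 and 318 at day 0, 181 and 192 in day 3 SSEA1+ cells, 1236 and 1143 in day 9 Thy1+ cells, 848 and 688 in day 9 SSEA1+ cells and 458 and 406 at day 12. Egr1, a zinc finger factor induced by the ERK pathway, had its minimum elsewhere, at 784 and 715 in day 3 Thy1+ cells. It scored 1165 and 1197 at day 0, 1360 and 1414 in day 3 SSEA1+ cells, 8914 and 10108 in day 9 Thy1+ cells, 3475 and 3950 in day 9 SSEA1+ cells and 1838 and 1928 at day 12. At day 3 Egr1 was the member whose SSEA1+ libraries lay above the Thy1+ libraries. Over the control populations Atf3 ranged 6.38-fold and Egr1 12.7-fold.

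**Figure D1:**
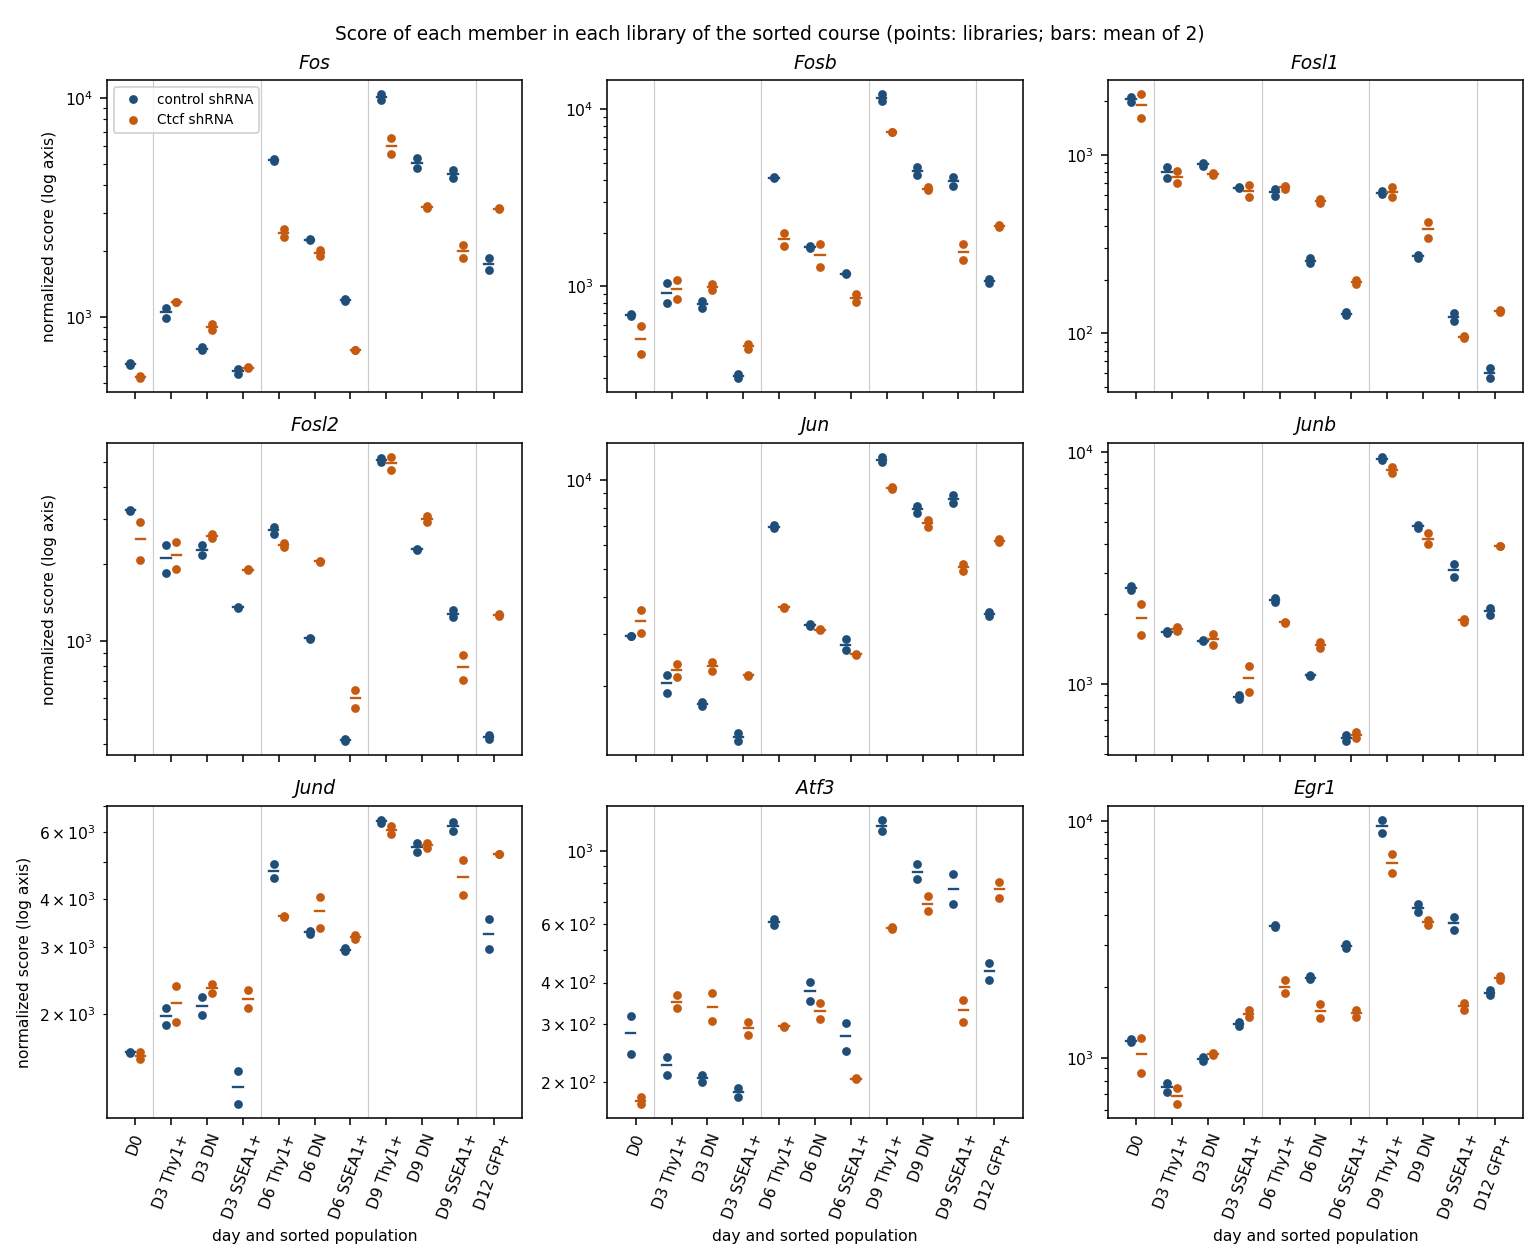
Normalized score (log axis) of each member in each library of the sorted course, by day and population, with a bar at the mean of 2 libraries; control shRNA is blue and Ctcf shRNA orange. In control cells 8 members peak in day 9 Thy1+ cells, and Fosl1 is highest at day 0.

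To set different genes side by side, scores were divided by kilobases of annotated exonic sequence, and on that scale the makeup of the FOS family changed. The normalization of the scores is not given, and whether they compare between genes in this way was not tested. With control shRNA, Fosl1 made up 58.9% of the family's summed score per kilobase at day 0, 32.6% in day 3 Thy1+ cells, 8.79% in day 6 Thy1+ cells and 2.99% at day 12. Fos made up 15.2% at day 0, 64.1% in day 6 Thy1+ cells, 61.4% in day 9 Thy1+ cells and 75.4% at day 12. The family sum per kilobase was 1713 at day 0, 754 in day 3 SSEA1+ cells, 6973 in day 9 Thy1+ cells and 988 at day 12. At day 12 the sum was thus below that of day 0, and Fos held most of it. In the JUN family, Jun, Junb and Jund were close to even at day 0, with 30.9%, 37.4% and 31.7% of the sum per kilobase. In day 6 SSEA1+ cells Jund held 61.2% and Junb 8.82%. The JUN sum per kilobase was 3008 at day 0 and 11560 in day 9 Thy1+ cells. These shares are descriptions of means of 2 libraries and were not tested.

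**Figure D2:**
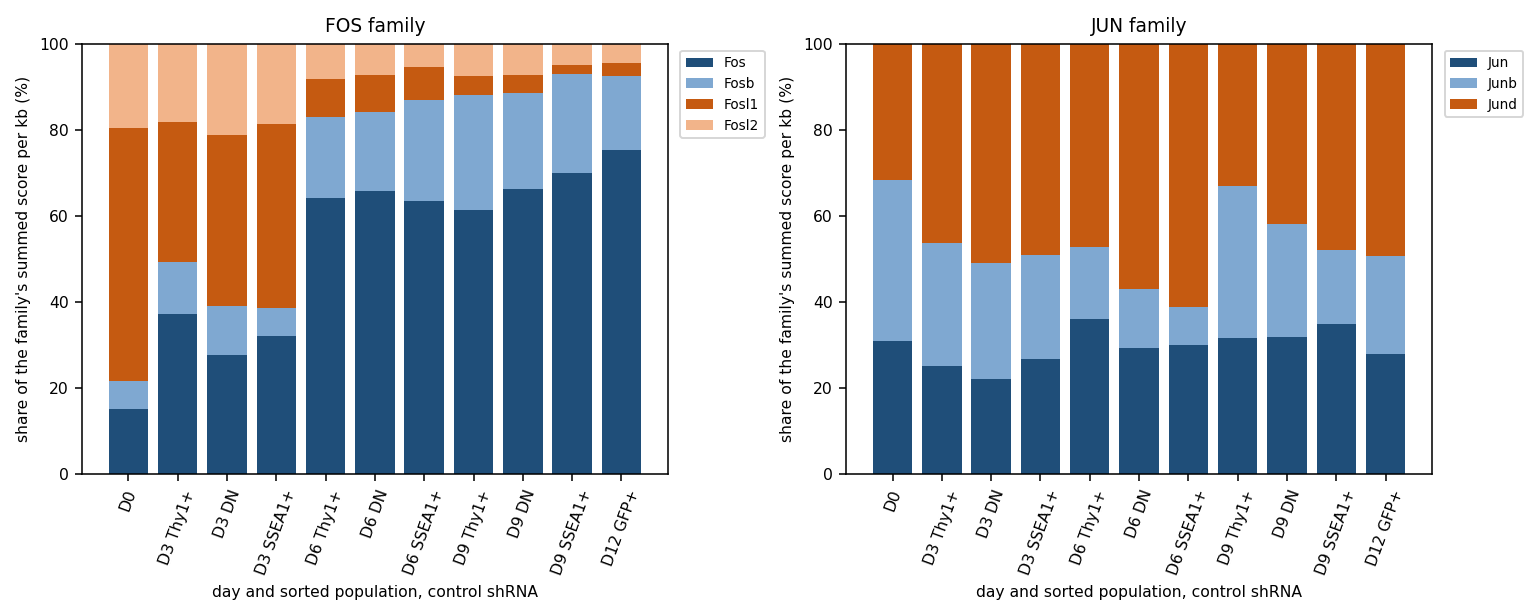
Share of each member in the summed score per kilobase of the FOS family (left) and the JUN family (right), in percent, for the control shRNA populations in order of day. Fosl1 falls from 58.9% at day 0 to 2.99% at day 12 while Fos rises from 15.2% to 75.4%.

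The first 3 days changed most members, and mostly downward. In day 3 SSEA1+ cells against day 0, 7 of 9 members were lower and 0 higher, with a median log2 difference of -1.14 against 0.09 over all genes, where 32.5% of genes were called lower and 39.7% higher. Fosl1 fell by 1.64 on the log2 scale (SE 0.12, limma, adjusted p = 8.89e-13) and Junb by 1.56 (SE 0.10, adjusted p = 1.86e-13), and Fos (-0.11) and Egr1 (0.23) were not called. The Jund difference of -0.31 was -0.17 and not called without the first SSEA1+ library. In day 3 Thy1+ cells, 5 members were lower and 3 higher (background 20.1% and 22.3%), with Fos higher by 0.78 (SE 0.08, adjusted p = 3.96e-09) and Fosl1 lower by a log2 difference of -1.36. The Fosb rise of 0.41 was not called without control day 0 library 1 (0.42) or 2 (0.39), or without Thy1+ library 1 (0.22), and that of Jund, 0.31, without day 0 library 1 (0.31) or 2 (0.32) or Thy1+ library 2 (0.24). Atf3, at -0.31, was not called in the reported fit. Of the runs leaving out 1 library of the groups compared, Atf3 was called only without day 0 library 1 (-0.50) or Thy1+ library 1 (-0.40). It was also called with quantile normalization. In double-negative cells, 6 were lower and 2 higher (background 27.7% and 29.8%). Of these calls, Fos (0.23) ended without day 0 library 1 (0.22) or double-negative library 2 (0.21), Atf3 (-0.44) without day 0 library 2 (-0.25), and Egr1 (-0.26) when any 1 of the 4 libraries was left out (-0.29 to -0.23).

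From day 3 to day 9 in Thy1+ cells, 8 of 9 members rose and 1 fell, where 24.5% of all genes were called higher and 31.7% lower. The median log2 change was 2.48 over the members and -0.08 over all genes. Fosb rose 12.7-fold (log2 3.67, SE 0.14, limma, adjusted p = 4.07e-17), Egr1 12.7-fold (3.66, SE 0.11, adjusted p = 2.59e-19) and Fos 9.57-fold (3.26, SE 0.08, adjusted p = 1.23e-21). Fosl1 fell by 0.37, which was -0.27 and not called without day 3 Thy1+ library 2. Of 20 other immediate early genes measured, 17 rose and 1 fell, with Egr3 at 39.5 and then 647.5 and Zfp36, which encodes an RNA-decay protein for cytokine messages, at 471.5 and then 6682. Of 20 genes known as AP-1 targets, 8 rose and 8 fell, among them Mmp3, a matrix protease (44 to 1594.5), and Hbegf, a growth factor (1919 to 885). Over the same interval 6 of 6 fibroblast markers rose, with a median of 2.04. Of 8 heat shock genes, which handling can induce, 2 rose (Hspa1a and Hspa1b) and 6 fell. The part of cell makeup and of handling in the members' change was not tested.

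In SSEA1+ cells the members moved in steps that differed by gene. From day 3 to day 6, 6 rose and 3 fell (background 23.8% and 25%), with Fosb higher by 1.93 (SE 0.14) and Fosl1 (-2.34, SE 0.12), Fosl2 (-1.72, SE 0.12) and Junb (-0.59, SE 0.10) lower. From day 6 to day 9, 8 rose and 0 fell (background 22.5% and 27%), and the median was 1.63 against -0.07 over all genes. Junb rose by 2.39 (SE 0.10, limma, adjusted p = 1.04e-16) and Fosl1 did not differ beyond the spread (-0.06, 95% interval -0.30 to 0.18). The Egr1 rise of 0.32 was not called without day 6 library 1 (0.29) or day 9 library 2 (0.23). The fibroblast marker sum in these SSEA1+ cells was 2258.5 at day 6 and 30961.5 at day 9, and its part in the rise was not tested. From day 9 SSEA1+ to day 12 GFP+ cells, 9 of 9 fell and 0 rose (background 33.6% and 25.5%), with a median of -1.04 against -0.06 over all genes. Fosb fell by 1.88 (SE 0.14, adjusted p = 3.06e-11) and Junb, the member that changed least, by 0.58 (SE 0.10, adjusted p = 2.29e-05). Fibroblast markers (6 of 6) and 14 of 20 AP-1 targets also fell in that step, and 8 of 8 heat shock genes rose.

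All 9 members differed between day 12 GFP+ cells and day 0 cells. In GFP+ cells 6 members were higher and 3 lower, in a comparison that called 40.1% of all genes higher and 40.2% lower. Fos was higher by 1.51 (SE 0.08, limma, adjusted p = 5.04e-16), Jund by 1.03 (SE 0.11), Egr1 by 0.67 (SE 0.11), Fosb and Atf3 by 0.63 each (SE 0.14 and 0.13), and Jun by 0.25 (SE 0.07, adjusted p = 0.00253). Fosl1 was lower by a log2 difference of -5.07 (SE 0.12, adjusted p = 1.59e-23), Fosl2 by -2.93 (SE 0.12) and Junb by -0.33 (SE 0.10). Of 20 other immediate early genes, 13 were lower and 6 higher, with Klf2, a pluripotency-associated factor, at 513 and then 2799 and Ier3 at 1986.5 and then 127. Of 20 AP-1 targets, 18 were lower and 0 higher, with a median of -3.70. Between the MEF and iPSC libraries described below, Fos, Fosb, Jun and Egr1 differed the other way, with more in MEFs.

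Within each day, SSEA1+ cells held less of most members than Thy1+ cells. On day 3, 7 of 9 were lower and 1 higher (background 28.8% and 35.4%). On day 6, 9 of 9 were lower and 0 higher (33.8% and 42.4%). On day 9, 8 of 9 were lower and 0 higher (30% and 38.8%). The medians were -0.62, -1.81 and -1.36, against 0.09, 0.15 and 0.13 over all genes. At day 6 Fosl2 stood at 2798 and 2614 in Thy1+ cells and at 415 and 409 in SSEA1+ cells, a log2 difference of -2.71 (SE 0.12, limma, adjusted p = 5.73e-17), and Fos differed by -2.11 (SE 0.08, adjusted p = 4.99e-19). The libraries of the 2 populations did not overlap for either gene. At day 9 Fosl1 differed by -2.30 (SE 0.12) and Fosl2 by -1.99 (SE 0.12), and Jund by -0.04 (95% interval -0.26 to 0.18, adjusted p = 0.746). Egr1 was higher in SSEA1+ cells at day 3, by 0.89 (SE 0.11, adjusted p = 1.13e-07), and lower at day 9, by -1.36 (SE 0.11, adjusted p = 4.19e-11). Its small difference at day 6, -0.28, was not called without Thy1+ library 1 (-0.29) or 2 (-0.27), or SSEA1+ library 1 (-0.25), and that of Fosl1 at day 3, -0.28, was not called without Thy1+ library 2 (-0.18) or SSEA1+ library 1 or 2 (-0.28 each). Fibroblast markers were lower in SSEA1+ cells in the same comparisons (6 of 6 at days 6 and 9). Thy1 is 1 of these 6, and its direction was set by the sorting. Of 20 AP-1 targets, 19 were lower at day 9, with Il6 at 4616 in Thy1+ and 549 in SSEA1+ cells and Spp1 at 47921 and 6143, and so were 19 of 20 other immediate early genes. Of 15 upstream kinases and serum response cofactors, 7 were lower and 3 higher.

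The gap between the populations changed from day 3 to day 9 for 5 members, by a test of the difference of differences. It was more negative at day 9 for Egr1 (-2.25, SE 0.16, limma, adjusted p = 2.23e-11), Fosl1 (-2.03, SE 0.16, adjusted p = 3.29e-10), Fosl2 (-1.37, adjusted p = 8.94e-07) and Junb (-0.67, adjusted p = 0.000764), and less negative for Jund (0.58, adjusted p = 0.00463). Over all genes 12.4% were called in the first direction and 16.2% in the other. Fos (-0.28, adjusted p = 0.0576) was called only without day 3 Thy1+ library 1 (-0.35) or day 9 SSEA1+ library 2 (-0.34). The Fosb gap was alike at both ends to within its interval (-0.01, 95% interval -0.43 to 0.41).

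**Figure D3:**
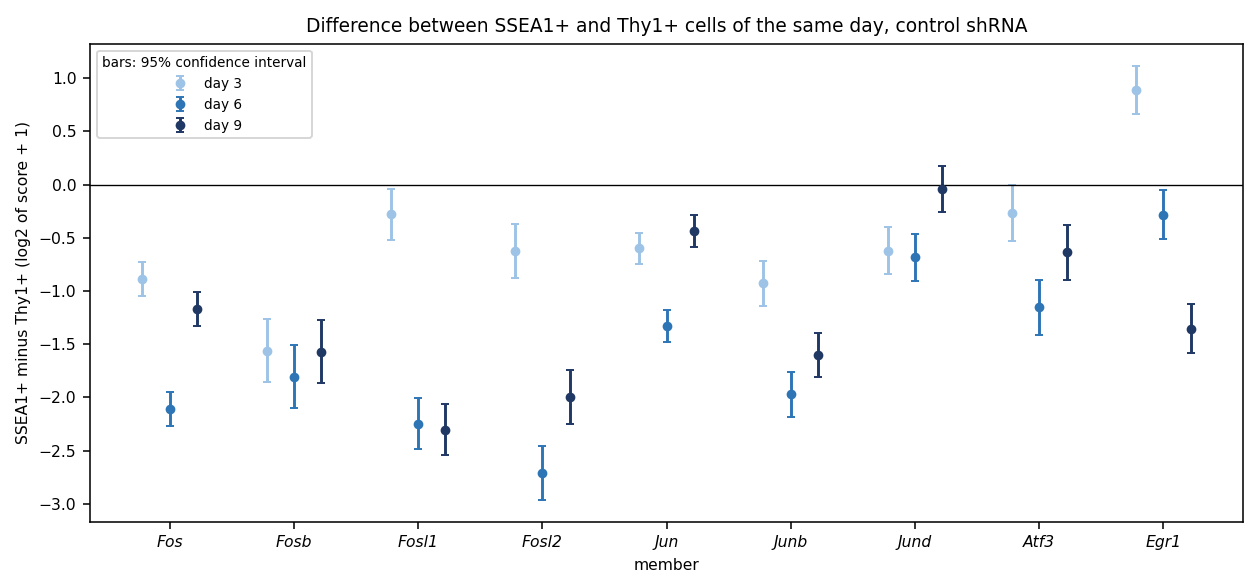
Difference of each member between SSEA1+ and Thy1+ cells (log2 of score + 1, points with 95% intervals) at days 3, 6 and 9 with control shRNA. Most points lie below 0; Egr1 moves from 0.89 at day 3 to -1.36 at day 9, and Jund ends at -0.04.

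Double-negative cells lay between the sorted extremes for most members at day 6. There, 9 of 9 members were lower than in Thy1+ cells and 0 higher (background 29.3% and 35%), and 7 were higher and 1 lower than in SSEA1+ cells (21.6% and 19.8%). Fos scored 2242 and 2280 in double-negative cells, between 5256 and 5160 in Thy1+ and 1190 and 1216 in SSEA1+ cells, with no overlap. Egr1 was the exception, at 2158 and 2208 against 2898 and 3030 in SSEA1+ cells, a log2 difference of -0.44 (SE 0.11, limma, adjusted p = 0.00232). Against SSEA1+ cells, the calls of Jun (0.22) and Atf3 (0.46) ended without the first SSEA1+ library (0.16 and 0.32), and also without double-negative library 2 for Jun (0.21) and 1 for Atf3 (0.36). At day 3, 2 members were lower and 1 higher than in Thy1+ cells (14.4% and 13.9%). These were Fos (-0.55, SE 0.08, adjusted p = 6.6e-06), Jun (-0.23, -0.20 without double-negative library 1 and -0.13 without Thy1+ library 1, both not called) and Egr1 (0.40, 0.37 without double-negative library 2 and 0.33 without Thy1+ library 2, both not called). Against day 3 SSEA1+ cells, 7 were higher and 1 lower (20.9% and 23.8%). At day 9, 8 were lower than in Thy1+ cells and 0 higher (24.4% and 30.1%), with Jund not called (-0.23), and 3 were higher than in SSEA1+ cells and 0 lower (15.5% and 11.3%). Those 3 were Fosl1 (1.12, SE 0.12), Fosl2 (0.83, SE 0.12) and Junb (0.63, SE 0.10).

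Ctcf shRNA moved the members differently in different populations. Of 99 pairs of a member and a population, 24 were called higher and 31 lower than with control shRNA, where 9.09% and 10.2% of all pairs of a gene and a population were called. An F test of any difference in the knockdown effect among the 11 populations was called for 9 of 9 members, and for 56% of all genes. Averaged over the populations, Fos (-0.31, SE 0.02, limma, adjusted p = 1.38e-11), Egr1 (-0.37, SE 0.03), Fosb (-0.23, SE 0.04) and Atf3 (-0.19, SE 0.04) were lower, and Fosl1 (0.24, SE 0.04), Fosl2 (0.26, SE 0.04) and Jund (0.10, SE 0.03, adjusted p = 0.0125) were higher. That is 4 lower and 3 higher, against 25.8% and 26.2% of all genes. Jun (-0.01, 95% interval -0.05 to 0.04) and Junb (-0.01, -0.07 to 0.05) averaged near 0, with calls in both directions below it. By gene, Egr1 was called lower in 5 populations and higher in 0, Fos lower in 6 and higher in 2, Fosl2 higher in 5 and lower in 1, and Fosl1 higher in 4 and lower in 1.

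At day 0, 3 members were lower with Ctcf shRNA and 0 higher (background 3.75% and 2.93%). Atf3 scored 244 and 318 with control shRNA and 180 and 172 with Ctcf shRNA, a log2 difference of -0.66 (SE 0.13, limma, adjusted p = 0.00234), which was -0.47 and not called without control library 2. Fosb (-0.47) and Junb (-0.45) were lower mainly by their second Ctcf shRNA library. Without it they were -0.22 and -0.23 and not called, without the first Ctcf shRNA library Fosb was -0.73, and the calls also ended without control library 1 (-0.46 for Fosb, -0.42 for Junb) and, for Fosb, 2 (-0.49). Without the first Ctcf shRNA library, Fosl2 (-0.64), Egr1 (-0.45) and Jun (0.29) were called. The pair of Ctcf shRNA libraries of day 0 had the highest median ratio of their squared difference to counting variance, 12.6, of the replicate pairs of the course. The macrophage marker sum was 7764.5 with control and 11469 with Ctcf shRNA at day 0, and its part was not tested.

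At day 3 the members that changed were higher with Ctcf shRNA. In SSEA1+ cells 5 were higher and 0 lower (3.56% and 3.22% of all genes). Jund scored 1164 and 1416 with control shRNA and 2320 and 2074 with Ctcf shRNA (0.77, SE 0.11, limma, adjusted p = 2.49e-05), and Jun 1302 and 1392 against 2160 and 2188 (0.69, SE 0.07, adjusted p = 3.89e-07). Both genes' libraries were apart by shRNA. Atf3 was higher in all 3 day 3 populations, by 0.64 in Thy1+ cells, 0.64 in SSEA1+ cells and 0.71 in double-negative cells (SE 0.13 each), and it was the 1 member called in Thy1+ cells, where 1.46% of genes were higher and 2.56% lower. That call ended without Ctcf shRNA library 2 (0.57) or control library 2 (0.55). The SSEA1+ calls of Fosb (0.56) and Fosl2 (0.48) ended when any 1 of their 4 libraries was left out (0.51 to 0.61 and 0.48 to 0.49), and Junb, at 0.26, was called without Ctcf shRNA library 1 (0.44). In double-negative cells 3 were higher and 0 lower (2.34% and 2.54%), Atf3, Jun (0.42, adjusted p = 0.000489) and Fos (0.34), the last not called without Ctcf shRNA library 2 (0.29) or control library 1 (0.31). The summed score of 3 measured keratinocyte markers was also higher with Ctcf shRNA, at 122 and 430.5 in Thy1+, 35 and 180 in SSEA1+ and 47 and 250 in double-negative cells. That of 4 epithelial markers was 894.5 and 1294 in SSEA1+ cells, and the part of these markers was not tested.

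In day 6 Thy1+ cells, 7 members were lower with Ctcf shRNA and 0 higher (7.56% and 6.83% of all genes). The median was -0.85 against 0.02 over all genes. Fos scored 5256 and 5160 with control shRNA and 2312 and 2522 with Ctcf shRNA, a log2 difference of -1.11 (SE 0.08, limma, adjusted p = 1.23e-10). Fosb differed by -1.16 (SE 0.14, adjusted p = 2.87e-06), Atf3 by -1.05 (SE 0.13), Jun by -0.91 (SE 0.07, adjusted p = 1.2e-09) and Egr1 by -0.85 (SE 0.11). The libraries of the 2 shRNAs did not overlap for these 5 genes, nor for Junb, Jund and Fosl2, the last of which was not called. The share of all genes without overlap was not counted. Junb (-0.32) was not called when any 1 of the 4 libraries was left out (-0.35 to -0.29), nor Jund (-0.40) without Ctcf shRNA library 1 (-0.39) or 2 (-0.40) or control library 2 (-0.33). Fosl1 did not differ beyond the spread (0.10, 95% interval -0.14 to 0.33). Other immediate early genes were lower too, 11 of 20 with 1 higher, among them Btg2, an antiproliferative gene (2172 and 1367.5), as were 5 of 8 ERK feedback genes with 1 higher, among them Spry4 (524 and 277.5). Spp1, an AP-1 target, stood at 37014 and 8127, while Plaur was higher (943.5 and 1432). Fibroblast markers were lower in the same cells (5 of 6, summed score 170999 and 113118), and 0 of 8 heat shock genes were called. The epithelial marker sum was 1950.5 and 1392.5, and the keratinocyte marker sum 57 and 218.5. The part of cell makeup was not tested.

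In the other day 6 cells the FOS family split. In double-negative cells Fosl1 scored 247 and 265 with control and 542 and 567 with Ctcf shRNA (1.11, SE 0.12, limma, adjusted p = 2.25e-08), and Fosl2 1035 and 1022 against 2063 and 2036 (0.99, SE 0.12, adjusted p = 4.07e-07). Both were well clear of the control libraries. Junb was higher by 0.44 (SE 0.10) and Egr1 lower by -0.47 (SE 0.11, adjusted p = 0.00128), making 3 higher and 2 lower where 20.2% and 21.9% of all genes were called. The second lower member, Fos (-0.20), was not called when any 1 of the 4 libraries was left out (-0.24 to -0.16). In SSEA1+ cells Fosl1 (0.59, SE 0.12) and Fosl2 (0.54, SE 0.12) were higher, and Egr1 (-0.94, SE 0.11, adjusted p = 6.45e-07), Fos (-0.76, SE 0.08), Fosb (-0.46) and Atf3 (-0.42) lower (2 and 4 of 9, background 11.2% and 11%). The Fosb call ended without Ctcf shRNA library 1 (-0.39) or control library 1 (-0.46) or 2 (-0.47), and the Atf3 call without Ctcf shRNA library 1 (-0.42) or 2 (-0.41) or control library 2 (-0.27). In double-negative cells the fibroblast marker sum was 22563 with control and 49762 with Ctcf shRNA. In SSEA1+ cells it was 2258.5 and 2922.5. The pluripotency marker sum was 313 and 84 in double-negative cells and 2391.5 and 1276.5 in SSEA1+ cells, the epithelial sum 3107.5 and 1973, and 12101 and 10278, and the keratinocyte sum 35 and 124, and 267.5 and 539. The part of these markers was not tested.

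In day 9 SSEA1+ cells, 9 of 9 members were lower with Ctcf shRNA and 0 higher (9.04% and 4.8% of all genes), with a median of -0.77 against 0.02. Fos scored 4294 and 4681 with control and 1861 and 2132 with Ctcf shRNA (-1.17, SE 0.08, limma, adjusted p = 3.1e-11), and Fosb 3700 and 4136 against 1399 and 1732 (-1.33, SE 0.14, adjusted p = 1.84e-07). Egr1 scored 3475 and 3950 against 1590 and 1710 (-1.17, SE 0.11, adjusted p = 2.22e-08), and Atf3 differed by -1.21 (SE 0.13). The 2 shRNAs did not overlap in any of the 9 genes. The share of all genes without overlap was not counted, and with 2 libraries per shRNA such separation is weak evidence. The Fosl1 call (-0.37) ended when any 1 of the 4 libraries was left out (-0.44 to -0.30), and the Jund call (-0.45) without Ctcf shRNA library 1 (-0.29) or control library 2 (-0.41). In these cells 14 of 20 other immediate early genes and 11 of 20 AP-1 targets were lower and 0 higher, with Il6 at 549 and 49 and Nr4a1, a nuclear receptor, at 2170 and 1090.5. Fibroblast markers were lower in 6 of 6, with a summed score of 30961.5 and 11211, and 2 of 8 heat shock genes were lower. The keratinocyte marker sum was 861 and 1566. In Thy1+ cells 5 members were lower and 0 higher (12.1% and 7.51%). These were Atf3 (-1.02, SE 0.13), Fos (-0.74, SE 0.08), Fosb (-0.64, SE 0.14), Egr1 (-0.51) and Jun (-0.32, SE 0.07). The Egr1 call ended without Ctcf shRNA library 1 (-0.38). In the same Thy1+ cells the epithelial marker sum was 3551.5 with control and 1221 with Ctcf shRNA, and the pluripotency marker sum 467 and 151.5. In double-negative cells Fos was lower (-0.66, SE 0.08) and Fosl1 (0.49) and Fosl2 (0.39) higher, 1 and 2 of 9 where 13.4% and 14.6% of genes were called. The Fosl1 call ended without Ctcf shRNA library 1 (0.34), and the Fosl2 call when any 1 of the 4 libraries was left out (0.35 to 0.43). The pluripotency marker sum was 1951 and 1061.5 in double-negative cells, and the part of the markers at day 9 was not tested.

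In day 12 GFP+ cells, 8 of 9 members were higher with Ctcf shRNA and 0 lower (24.6% and 24.7% of all genes). The median was 0.84 against -0.07 over all genes. Fosl2 scored 417 and 433 with control and 1250 and 1280 with Ctcf shRNA (1.57, SE 0.12, limma, adjusted p = 5.93e-11), and Fosl1 56 and 64 against 132 and 135 (1.14, SE 0.12, adjusted p = 6.8e-09). Fos scored 1638 and 1865 against 3152 and 3098 (0.84, SE 0.08), and Junb 2120 and 1992 against 3926 and 3924 (0.93, SE 0.10). Egr1 was not called (0.20, 95% interval -0.03 to 0.43, limma, adjusted p = 0.135). Libraries of the 2 shRNAs were apart for all 9 members, Egr1 included. The share of all genes apart in this way was not counted, and with 2 libraries per shRNA such separation is weak evidence. With Ctcf shRNA, Atf3 had its highest mean of the course in these cells, overlapping with day 9 double-negative cells. Of 20 AP-1 targets 17 were higher and 0 lower, with Il1rl1 at 121.5 and 540. Of 20 other immediate early genes 14 were higher and 4 lower, among the latter Klf2 (2799 and 1707.5). Fibroblast markers were higher in 6 of 6 (summed score 12074.5 and 34026.5), the pluripotency marker sum was 33464 and 18629, the epithelial sum 13938.5 and 22924.5, and 3 of 8 heat shock genes were lower. The part of these markers in the members' change was not tested.

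The knockdown effect averaged over days 3, 6 and 9 was compared between SSEA1+ and Thy1+ cells. It differed for 1 member, Jun (0.29 higher in SSEA1+ cells, limma, adjusted p = 0.0017), in a comparison that called 5.41% of genes in this direction and 4.29% in the other. Jund was close (0.27, adjusted p = 0.0516) and was called without the second library of day 3 Ctcf shRNA SSEA1+ (0.29) or Thy1+ (0.32) cells, the second control SSEA1+ (0.31) or first control Thy1+ (0.29) library of day 3, or the first day 9 Ctcf shRNA SSEA1+ library (0.32). The other 7 members were not called.

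**Figure D4:**
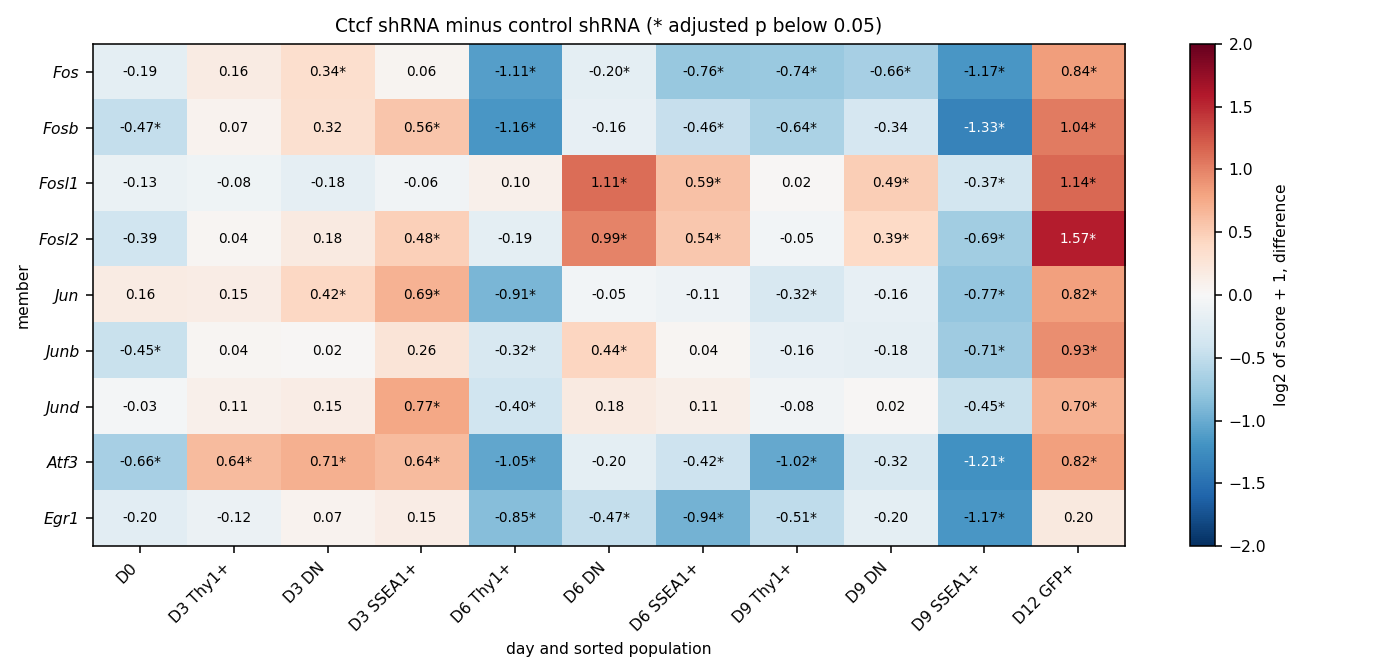
Difference between Ctcf shRNA and control shRNA for each member (rows) in each population (columns), as log2 of score + 1; red is higher and blue lower with Ctcf shRNA, and stars mark adjusted p below 0.05. Fos falls by 1.11 in day 6 Thy1+ cells and by 1.17 in day 9 SSEA1+ cells, and Fosl2 rises by 1.57 at day 12.

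The day 10 libraries give the members' levels under CTCF overexpression, with little power to test them. The 2 control columns of this table were so alike that they were averaged and counted as 1 sample, and the fit has 2 residual degrees of freedom, which leaves wide intervals. Fos scored 7518 in both control libraries, 7392 and 8465 with CTCF overexpression, and 7518 and 8211 with the added Smarca5 shRNA. Atf3 scored 1308 and 1287 in the controls, 1122 and 3980 with overexpression and 1594 and 4310 with the added shRNA. Egr1 scored 9181 and 8726, then 9647 and 6551, then 11870 and 6648. In both treated groups the second replicate was above the first for 8 members, and below it for Egr1, and control values lay within or beside this spread. Over all genes, the replicate differences of these 2 groups had r = 0.07. The share of all genes that kept 1 direction in both groups was not counted. Against control, Fos differed by 0.07 with overexpression (95% interval -0.28 to 0.42) and Atf3 by 0.70 (-1.97 to 3.38). With limma, 0 of 9 members were called in each of the 3 comparisons, 0 had an unadjusted p below 0.05, and the smallest unadjusted p were 0.447 for overexpression, 0.539 for the added Smarca5 shRNA and 0.358 for the pair against control. Over all genes 0.0618%, 0.0773% and 0.101% were called. The added Smarca5 shRNA gave Fos -0.01 (-0.30 to 0.28) and Jun 0.29 (-0.92 to 1.51). The targeted genes were not called either, so the lack of calls says nothing about whether the members changed: Ctcf scored 1262 and 1234 in the controls and 5110 and 6132 with overexpression (2.16, adjusted p = 0.217), and Smarca5 13818 and 13283 without and 6387 and 6650 with its shRNA (-1.06, adjusted p = 0.0695).

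**Figure D5:**
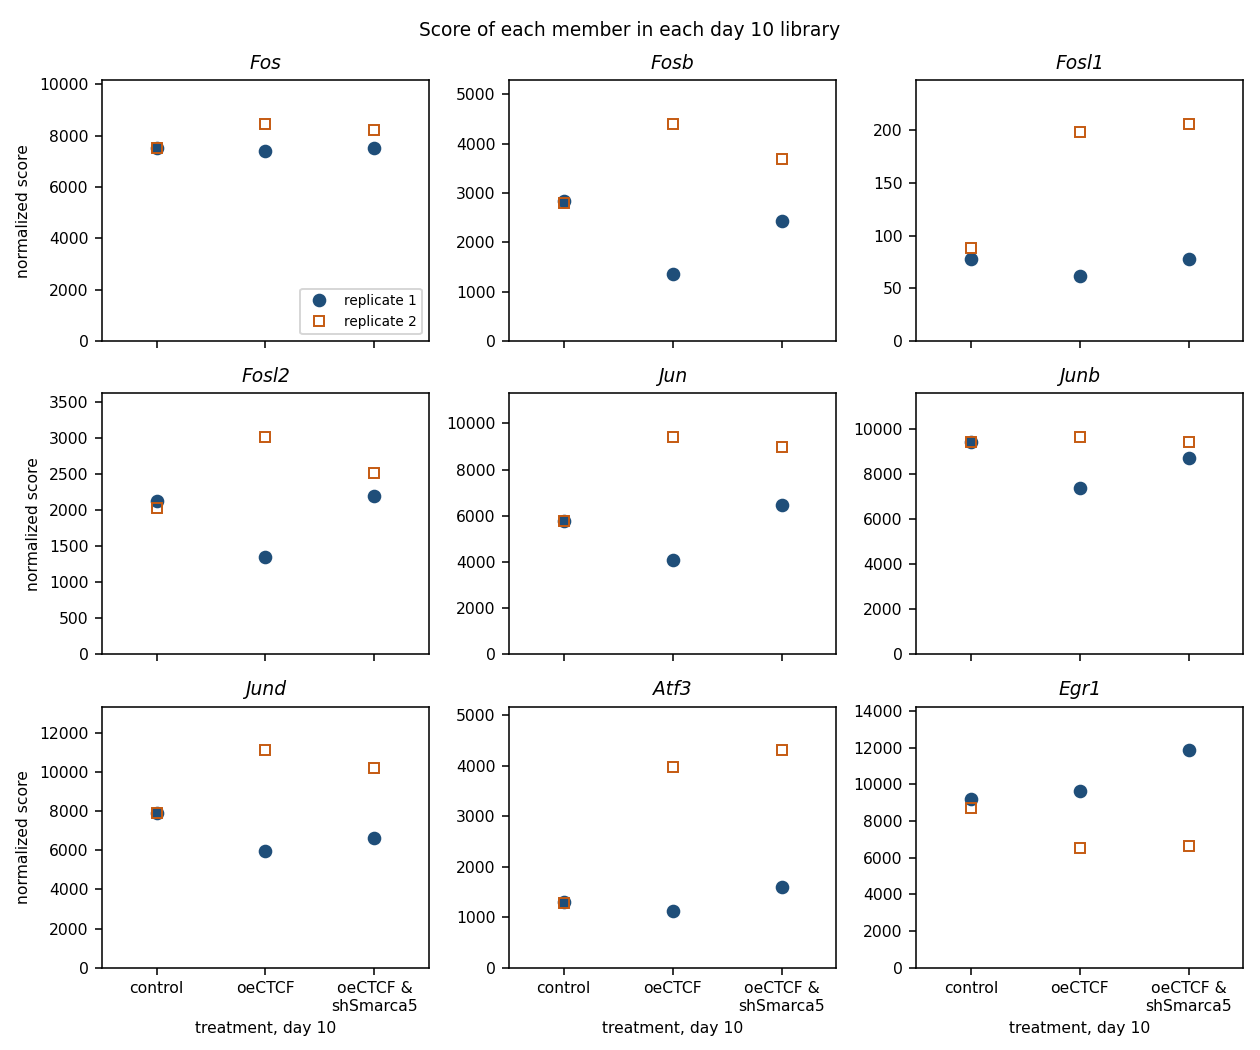
Normalized score of each member in each day 10 library by treatment, with circles for replicate 1 and squares for replicate 2. Replicate 2 lies above replicate 1 in both treated groups for 8 members and below it for Egr1.

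The authors' deposited table of their own day 10 Ctcf shRNA comparison has no column names, so direction is read from Ctcf in the same table. In the authors' deposited table, Fos had means of 9724 where Ctcf was lower and 16479 where it was higher, a log2 ratio of -0.76 with the authors' p of 1.82e-247. Jun (-0.45), Fosb (-0.43), Egr1 (-0.33), Atf3 (-0.25), Jund (-0.21) and Junb (-0.20) were also lower in the authors' deposited table, each past 0.05. Fosl2 (-0.03) and Fosl1 (0.46) were not past it in the authors' deposited table. Of all 54395 rows of that authors' deposited table, 3.06% were lower at that threshold. The authors' deposited table thus has far more rows than the 13451 genes of the sorted table, so its shares cannot be set beside the others. In the authors' deposited table on overexpression no member had a p below 0.05, against 1.2% of rows, and Atf3 had means of 2016 with less and 4394 with more Ctcf. The authors' p-values come without a stated test or spread.

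The starting MEFs and an iPSC line were sequenced once each, so there is no test. This comparison rests on counts, 16593659 in MEFs and 9912018 in iPSCs. Egr1 had 5437 counts in MEFs and 151 in iPSCs, a ratio of library-scaled counts of 21.5 (95% counting interval 18.3 to 25.5), and Fos 4558 and 367, a ratio of 7.42 (6.67 to 8.27). Fosl1 had 162 and 49 (1.97, 1.43 to 2.78), Atf3 589 and 351 (1.00, 0.877 to 1.15) and Jund 989 and 973 (0.607, 0.555 to 0.664). At least a 2-fold excess in MEFs was found for 5 members, Fos, Fosb, Fosl2, Junb and Egr1, against 24.1% of all genes, and 0 were as much higher in iPSCs (26% of all genes). The median log2 ratio was 1.55 against -0.03. Fos, Fosb, Jun and Egr1 were thus higher in MEFs, whereas in the sorted course they were higher in day 12 GFP+ cells than at day 0. Fosl1, Fosl2, Junb and Jund went the same way in both comparisons. What sets the comparisons apart was not tested. The intervals cover counting error only. The iPSC medium held a MEK inhibitor and a GSK3 inhibitor and the MEF medium did not, so cell type and medium cannot be told apart.

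Across the 22 group means of the sorted course, which share their normalization, Fos, Fosb, Jun, Jund, Atf3 and Egr1 rose and fell together, with Pearson r of 0.80 to 0.97 over the 15 pairs. Junb had r of 0.62 to 0.82 with them, Fosl2 0.09 to 0.37 and Fosl1 -0.53 to -0.24. Fosl1 and Fosl2 had r = 0.77 with each other. The 3 genes most like each member were taken by the same measure among genes whose highest group mean reached the median score of the sorted course. The members themselves, mitochondrial genes, genes with provisional names (such as Gm or Rik names) and repeated names were left out. Btg2 was among them for Fos (r = 0.94), Fosb (0.95), Jun (0.97) and Atf3 (0.90), scoring 920 at day 0 and 4249 in day 9 Thy1+ cells with control shRNA. Those for Junb were Gem, Tnfaip3 and Zfp36 (0.97, 0.96 and 0.95), for Jund Ypel3, Ttc3 and Ccni (0.93 to 0.92), for Egr1 Sned1, Hdac5 and Ccnl1 (0.92 to 0.88), for Fosl1 Syde1, Slc4a4 and Thsd7a (0.97 each), and for Fosl2 Hivep2, Sgms2 and Slit2 (0.97 to 0.96). Others were Hmg20b for Fos, Cp for Fosb, Pnrc1 and Ptms for Jun, and Pnrc1 and Nfkbia for Atf3. These correlations are descriptions over groups of 1 experiment and carry no p.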

How the data were processed

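RNA was measured in bulk by RNA-seq. Per the submitters' processing notes, Trim Galore, FastQC and RSEM were used, with GRCm38 (mm10), or mm9 for the MEF and iPSC libraries. Versions and the normalization are not given in the sources used here. The sorted and day 10 tables hold a score, the authors' normalized and rounded tag counts as deposited; this was read from their values. The MEF and iPSC table holds deposited counts. The authors' deposited comparison tables hold score means, log2 ratios and p-values with no header. Of the 56 samples, 4 from the day 10 shRNA experiment are present only in the authors' comparison table.

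Because a score is no raw count, the log2(score + 1) values were analysed with limma 3.58.1 (R 4.3.3), fitting a mean for every group and moderating variances along a trend with level. The sorted fit used 44 libraries; in the day 10 fit the control columns, which differed by a median of 0.327 of the variance that counting would give (other pairs 1.6 to 12.6), were averaged. Genes were kept if 2 or more libraries reached 10. P-values were adjusted by Benjamini-Hochberg over 13451 or 12935 genes; 819 and 933 repeat rows were left out. Fold changes on this scale understate those of low genes. The scripts were tested on simulated data. Depth beyond the totals is unknown for scores. Count ratios carry exact 95% binomial intervals.

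The members and gene lists were chosen with earlier results of these data known. The rule for naming list genes was up to 2 per direction, taken by the size of the called change among genes whose higher group mean reached the table's median; only some of these are printed, and some items are not reported here. Alternatives were a pseudocount of 8, a minimum of 50, no filter, quantile normalization, no trend, a replicate block, separate control columns, a pseudocount of 0.1 for MEFs and iPSCs, and leaving out each library. The replicate numbers were not used to pair samples in the reported fits.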

Additional observations from a re-analysis of the deposited data

Results flagged for a closer look

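Differences between groups in the same contrast were found for all 9 members by tests of the difference itself. The gap between SSEA1+ and Thy1+ cells changed from day 3 to day 9 by -2.25 for Egr1, -2.03 for Fosl1, -1.37 for Fosl2, -0.67 for Junb and 0.58 for Jund on the log2 scale (limma, adjusted p below 0.05 each). The Ctcf shRNA effect averaged over days 3, 6 and 9 was 0.29 higher in SSEA1+ than in Thy1+ cells for Jun.

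The Ctcf shRNA effect differed among the 11 populations for each member by a moderated F test (limma). The adjusted p was 3.4e-13 for Fos, 5.32e-09 for Fosb, 2.55e-08 for Fosl1 and 1.77e-09 for Fosl2. It was 1.57e-12 for Jun, 4.39e-08 for Junb and 2.06e-06 for Jund, and 7.4e-11 for Atf3 and 1.19e-07 for Egr1. Of all genes, 56% were called by this test.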

How the results depend on the processing

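No member difference that was called in the reported fit or in an alternative run changed sign between them. Counts of called genes in the sorted course moved by more than 1.5 times only when a library was left out. Those counts ranged from 227 to 2985 for Ctcf shRNA at day 0, the lowest without its second and the highest without its first Ctcf shRNA library. They ranged from 223 to 671, 456 to 1057 and 285 to 805 in day 3 Thy1+, SSEA1+ and double-negative cells. They ranged from 958 to 2275 and 1787 to 3271 in day 6 Thy1+ and SSEA1+ cells, and from 1572 to 2940, 1135 to 2075 and 2192 to 4155 in day 9 Thy1+, SSEA1+ and double-negative cells. For day 3 double-negative against Thy1+ cells they ranged from 2461 to 4145. With the replicate block, 32 of 32 counts of the sorted course stayed within 1.5 times. Over all genes, deviations of same-numbered libraries correlated by -0.10 to 0.13 over pairs of groups of the sorted course and by -0.08 to 0.07 at day 10. At day 10, however, each member deviated the same way by replicate number in both treated groups, and the share of all genes doing so was not counted. Whether same-numbered libraries were handled together is not stated.

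At day 10 the counts over all genes depend on the settings, with 0 members called in the fit reported. For CTCF overexpression the 8 genes called became 1 with a pseudocount of 8, 15 with quantile normalization, 56 without the trend, 141 with the control columns as 2 libraries and 25 with the replicate block added to those. For the added Smarca5 shRNA the 10 genes became 0 with quantile normalization, 31 without the trend and 5 with the replicate block. For both treatments against control the 13 genes became 1 with a pseudocount of 8, 51 without the trend, 74 with 2 control libraries and 38 with the replicate block. Leaving out 1 library gave 0 to 65, 0 to 44 and 0 to 64 genes. The 95% intervals of the members against control were 0.70 to 5.36 wide on the log2 scale, which limits what day 10 can resolve. No member was called at day 10 in any alternative run.

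Among single members, Fosb at day 0 with Ctcf shRNA lost its call with a pseudocount of 8, quantile normalization or no trend, and Egr1 in day 3 double-negative cells against day 0 with the last 2 of these. Calls appeared for Fos in the change of the gap (pseudocount of 8, quantile normalization, replicate block), for Jund in the difference of knockdown effects (pseudocount of 8, replicate block), for Atf3 in day 3 Thy1+ cells against day 0 and in day 9 double-negative cells with Ctcf shRNA (quantile normalization), and, with the replicate block, for Jund in day 9 double-negative against Thy1+ cells (-0.23) and Fosl2 at day 0 with Ctcf shRNA (-0.39).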
